A study of Mus musculus with 6 samples.

Results

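MIF and IGFBP7 encode proteins that muscle cells release, and they are described here as 2 genes of the 1521 named genes on a muscle microarray. They were chosen by their measured scores, which lay below 0 on each of the 6 arrays of the series, so those signs and sizes are given as a description, with no test. The study silenced MyoD, a basic helix-loop-helix regulator of the muscle programme, in C2C12, a mouse myoblast line of C3H origin that fuses into myotubes when serum is lowered. The silenced cells were MyoD(-)cl.A8, a single G-418 resistant clone stably carrying the mouse MyoD transcript in antisense orientation. RNA of the clone was set against RNA of C2C12 control cells at 1, 3 and 6 days of differentiation. A growth medium with fetal bovine serum and a differentiating medium with horse serum are listed beside the clone on 1 array and beside the control on the other 5, with no other medium for either. Nothing in the labels gives the controls an empty vector or drug selection, so the transfection and the choice of 1 clone cannot be told apart from the loss of MyoD. Each day had 2 arrays, A with the clone in Cy5 and B with the clone in Cy3.

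MIF, macrophage migration inhibitory factor, is a small cytokine that is made ready-formed, lacks a signal peptide and leaves the cell by a non-classical route. It acts through CD74 with CD44 and through the chemokine receptors CXCR2 and CXCR4. IGFBP7, a distant relative of the insulin-like growth factor (IGF) binding proteins, carries a signal peptide, is secreted through the endoplasmic reticulum and is found in basement membranes of vessels beside type IV collagen. IGFs drive both the growth and the differentiation of myoblasts, and their binding proteins set how much free ligand reaches the receptor.

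The promoter windows of the mouse genes are shown because the silenced factor acts by binding E-boxes. Mif lies at chr10:75859353-75860277 and Igfbp7 at chr5:77349240-77408045 of GRCm38.p6, both on the minus strand. Each RefSeq window holds 250 bases before and 50 bases after the annotated transcript start, at chr10:75860228-75860527 and chr5:77407996-77408295. They are written 5′ to 3′ on the gene's strand, with GC boxes and a cyclic AMP response element in capitals.
Mif: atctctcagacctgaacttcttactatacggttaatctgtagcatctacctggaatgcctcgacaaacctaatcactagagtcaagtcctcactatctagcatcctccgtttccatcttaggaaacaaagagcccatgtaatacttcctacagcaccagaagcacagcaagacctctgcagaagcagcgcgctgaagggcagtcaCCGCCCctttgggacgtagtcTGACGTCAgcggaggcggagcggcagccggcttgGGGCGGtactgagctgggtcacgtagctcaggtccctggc
Igfbp7: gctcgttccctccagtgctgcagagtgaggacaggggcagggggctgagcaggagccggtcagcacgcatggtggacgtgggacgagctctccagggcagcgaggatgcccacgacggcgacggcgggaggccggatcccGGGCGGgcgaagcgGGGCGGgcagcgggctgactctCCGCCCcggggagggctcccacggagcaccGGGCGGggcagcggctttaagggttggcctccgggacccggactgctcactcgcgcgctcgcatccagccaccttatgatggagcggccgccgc
The E-box CANNTG, searched on both strands, had 0 matches in either window, while 72.3% of the 32851 mouse windows of the same length held at least 1. The cyclic AMP response element TGACGTCA was found in Mif, 24 bases before the start, and it is present in 1.79% of windows. The GC box GGGCGG, read on both strands, matched 2 times in Mif and 4 times in Igfbp7, and 35.7% of windows hold it. The TATA box TATAAA had 0 matches in both (13.6% of windows hold it), and no matches of these motifs overlapped in the 2 windows. The Igfbp7 window was 73.3% G and C and the Mif window 54.0%, against a median of 52.7% over all windows. A match or its absence describes these letters in these windows only. The sequences are mouse, whereas the probes were built for human genes.

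The deposited values are scores per spot, and neither their scale and centring nor their direction is given. They were not read as log2 ratios, because 2 spot values lay beyond 16, more than a 16-bit scanner can give, so no fold changes are reported. Scores below 0 are taken as lower in MyoD(-)cl.A8. That direction is likely and rests on the submitters, who named the clone as test and C2C12 control RNA as reference. Arrays A and B are both taken in this direction. Whether the B scores had been inverted for the dye swap was not tested. After averaging, each array gave 2466 features, made up of the 1521 genes and 945 probes without a gene name, and array medians before centring lay between -0.07 and 0.03. Across features, dye-swapped arrays correlated at 0.16 to 0.21 (3 pairs) and arrays from different days at -0.08 to 0.12 (12 pairs). MYOD1 itself had scores of 0.41 and -0.36 on day 1, 1.11 and -1.03 on day 3, and 0.50 and 0.26 on day 6. Its signs differed between the dye-swapped arrays of days 1 and 3, and since the construct is transcribed from MyoD sequence, this does not check the silencing. Ratios do not show whether a marker is present, so the identity of the cells was not checked. In RNA from whole cultures, fewer cells of a type and less RNA per cell cannot be told apart.

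MIF stood at -1.86 and -1.68 on the day 1 arrays A and B, at -3.55 and -5.42 on day 3, and at -1.94 and -2.00 on day 6. Both day 3 arrays lay below all 4 others, and the day 1 and day 6 values lay close together. The day means were -1.77, -4.49 and -1.97, with an overall mean of -2.74 ± 1.51 (SD, n = 3 days). Among the 2466 features, counted from the lowest, the MIF mean ranked 2, and its day scores ranked 34, 3 and 55. Without day 3 its mean would be -1.87, and without day 1 it would be -3.23. With the clone in Cy5 (arrays A) MIF averaged -2.45, and with the clone in Cy3 (arrays B) -3.03.

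IGFBP7 had scores of -3.15 and -3.02 on day 1, -2.43 and -0.34 on day 3, and -1.34 and -0.65 on day 6. The day 1 arrays were the lowest and nearly equal, while the ranges of days 3 and 6 overlapped. Its day means were -3.08, -1.38 and -0.998, averaging -1.82 ± 1.11 (SD, n = 3 days). The rank of IGFBP7 from the lowest was 11 for the mean and 4, 155 and 305 for days 1, 3 and 6. Leaving out day 1 moved the mean to -1.19. Arrays A averaged -2.31 and arrays B -1.34.

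**Figure D1:**
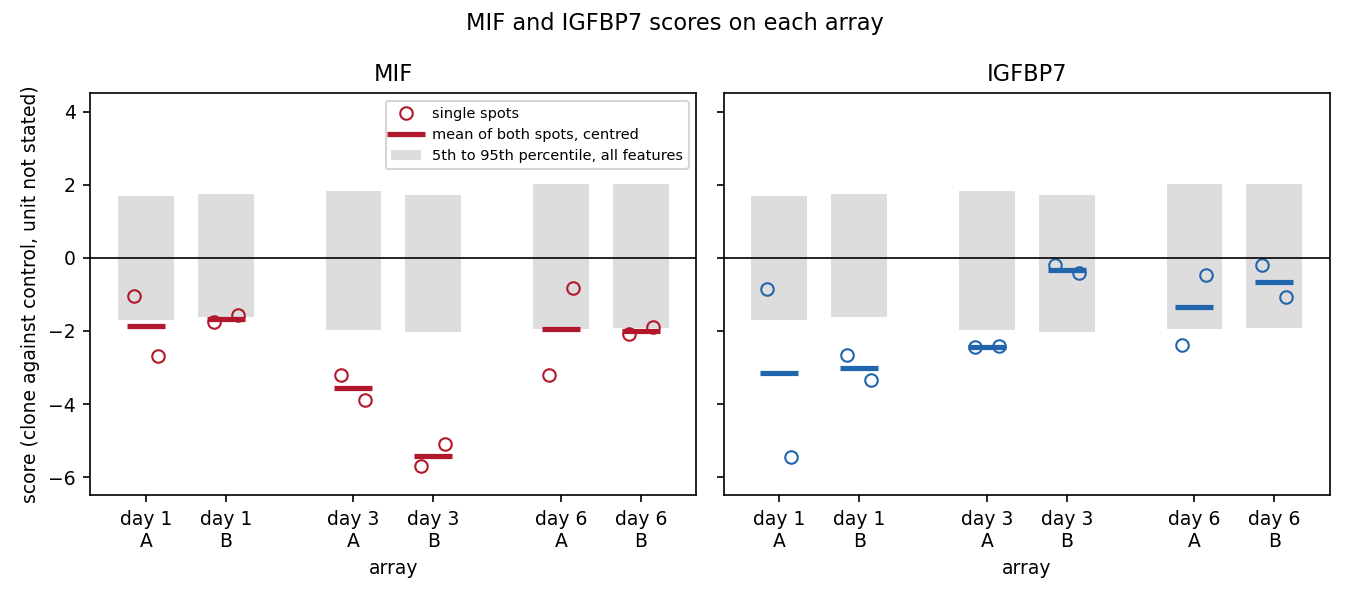
Scores of MIF (left) and IGFBP7 (right) on the 6 arrays, by day and array letter; circles are single spots as deposited, horizontal lines the centred mean of both spots, and grey bars the 5th to 95th percentile of all 2466 features on that array. MIF is lowest on both day 3 arrays (-3.55 and -5.42) and IGFBP7 on both day 1 arrays (-3.15 and -3.02). IGFBP7 lies inside the grey bars on day 3 B (-0.34) and on both day 6 arrays (-1.34 and -0.65). MIF lies just inside on day 6 A (-1.94).

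The highest MIF array was -1.68, and the highest IGFBP7 array was -0.34, just inside the limit of 0. Of all features, 71 lay below 0 on each of the 6 arrays, which is 2.88%, or 2.76% of the named genes alone, and 2.64% lay above 0 on 6 of 6. A stricter reading takes a day as low when both of its arrays are at least 2 score units below 0. MIF met it on day 3, as did 0.811% of features, and IGFBP7 met it on day 1, as did 0.284% of features. Neither gene met it on another day. On day 6, 1.14% of features did. In the other direction, 0.527%, 0.446% and 0.689% of features were at least 2 units above 0 on both arrays of days 1, 3 and 6. These shares are background only, because the same scores chose the genes.

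Each gene had 1 probe, printed in 2 neighbouring spots, MIF (Entrez Gene 4282) at spots 4907 and 4908 and IGFBP7 (Entrez Gene 3490) at spots 3731 and 3732. All 12 spot values of each gene, the values on which they were chosen, were below 0. This was so for 15 of 2688 probes, and 11 probes had all 12 above 0. The MIF spots read -1.03 and -2.68 on day 1 A, -1.76 and -1.56 on day 1 B, -3.20 and -3.90 on day 3 A, -5.68 and -5.09 on day 3 B, -3.20 and -0.82 on day 6 A, and -2.08 and -1.89 on day 6 B. Thus the day 3 values came from spots that differed by 0.70 and 0.59. The median spot difference over all probes on those arrays was larger (0.88 and 1.06), while the day 6 A spots were 2.38 apart. Spot differences here are between deposited values, so they also hold any difference in level between all first and all second spots. The IGFBP7 spots read -0.84 and -5.44 on day 1 A, -2.66 and -3.35 on day 1 B, -2.43 and -2.42 on day 3 A, -0.21 and -0.40 on day 3 B, -2.37 and -0.45 on day 6 A, and -0.19 and -1.08 on day 6 B. The day 1 A difference of 4.60 was larger than that of 98.7% of probes on the array. The low day 1 A score of IGFBP7 therefore rested mostly on 1 of its spots. Read from the first spot of each probe alone, with arrays centred anew on those spots, IGFBP7 stood at -2.08 on day 1. From the other spot, centred in the same way, it stood at -4.11. The deposited spot values above average differently, because first and second spots had different medians on day 1.

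To see what stood around each gene in the probe order, the 10 probes at every other place within 10 places on either side were examined. On day 3, when MIF was lowest, most of these 10 probes around it were low too. Their median was -0.90 on array A, with 9 of 10 below 0, and -0.48 on array B, with 7 of 10 below 0. On the other 4 arrays the neighbour medians of MIF lay between -0.11 and 0.31. The 2 probes directly beside MIF, not among these 10, averaged 0.45 and 0.07 on the day 3 arrays. They averaged -0.65 and -0.86 on day 1, and 0.59 and 0.65 on day 6. After the neighbour median was subtracted, MIF stood at -2.66 and -4.95 on day 3, at -1.90 and -1.79 on day 1, and at -2.23 and -1.87 on day 6. It thus remained lowest on the day 3 arrays. For IGFBP7 the neighbour median was 0.09 on day 1 A, -0.62 on day 1 B and -0.80 on day 3 A, where 5, 9 and 9 of 10 neighbours were below 0. The 2 probes directly beside IGFBP7 averaged -0.62 and -0.86 on the day 1 arrays. Subtraction left IGFBP7 at -3.24 and -2.40 on day 1, at -1.63 and -0.32 on day 3, and at -1.25 and -0.61 on day 6. The part that position plays in the remaining scores was not tested.

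**Figure D2:**
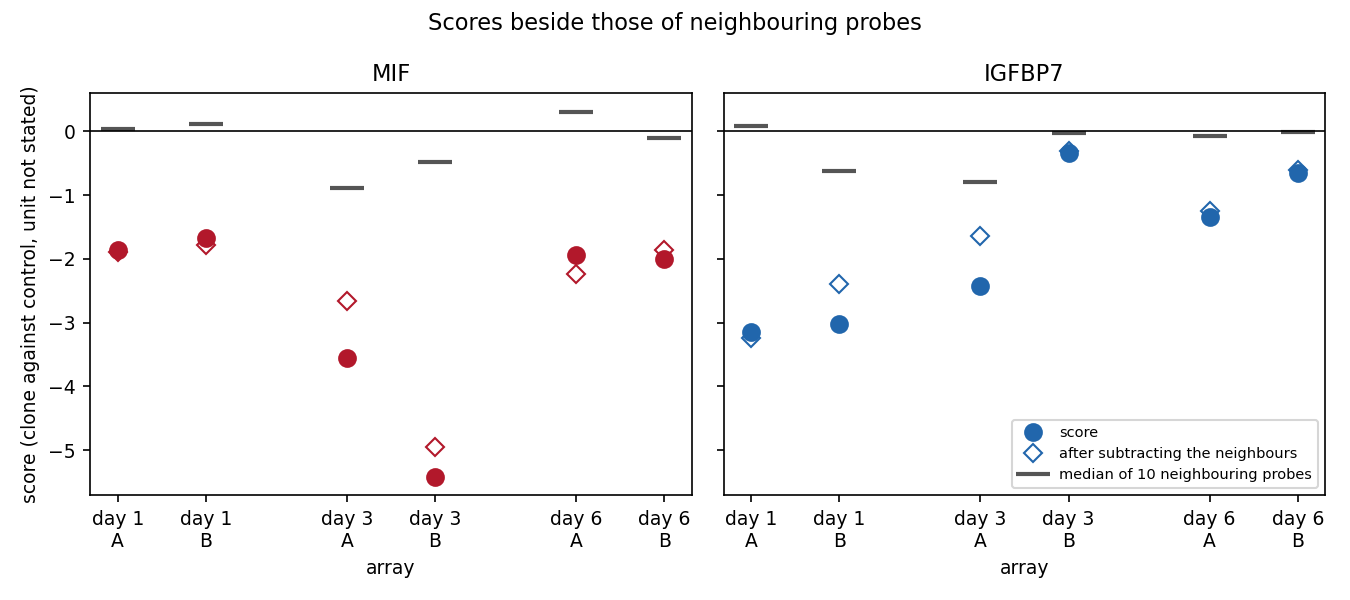
Scores of MIF (left) and IGFBP7 (right) on each array (filled circles), the median of 10 neighbouring probes (grey lines) and the score after subtracting it (open diamonds). The medians of the 10 neighbouring probes of MIF are -0.90 and -0.48 on day 3, while its 2 adjacent probes, not drawn, average 0.45 and 0.07. After subtraction of the medians, the day 3 values of MIF, -2.66 and -4.95, are still its lowest.

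Whether the scores differed with time is a comparison that the signs used to choose the genes do not fix. A slope over days 1, 3 and 6 was fitted with limma to the 3 day means of all features. The slope was 0.03 units a day for MIF (limma's adjusted p = 0.994) and 0.39 units a day for IGFBP7 (limma's adjusted p = 0.898), and neither passed. Over all features 0 of 2466 passed, or 0%, against 121 at an unadjusted p under 0.05. Differences between single days were fitted with limma to the 6 arrays, where the only error is the spread between dye-swapped arrays and 1 RNA pair stands for each day. Day 3 minus day 1 was -2.72 for MIF (adjusted p = 0.549 in limma), and day 6 minus day 3 was 2.52 (0.450). The MIF values of days 6 and 1 differed by -0.20 (limma's adjusted p = 0.969). For IGFBP7, day 3 minus day 1 was 1.70 (limma's adjusted p = 0.700), day 6 minus day 3 was 0.39 (0.939) and day 6 minus day 1 was 2.09 (0.588). None of these 6 differences passed after adjustment over all features. The shares of features that did were 0.162% for day 3 minus day 1, 0.365% for day 6 minus day 1 and 0.0406% for day 6 minus day 3. Unadjusted p-values were 0.0106 and 0.0164 for the MIF differences of day 3 from days 1 and 6, and 0.0452 for the IGFBP7 difference of day 6 from day 1. Such unadjusted values under 0.05 were found for 188 of 2466 features in day 3 minus day 1, for 204 in day 6 minus day 1 and for 216 in day 6 minus day 3.

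The lowest day differed between the 2 genes. MIF minus IGFBP7 was 1.28 and 1.34 units on the day 1 arrays, -1.12 and -5.08 on day 3, and -0.60 and -1.35 on day 6. IGFBP7 was thus the lower of the pair on both day 1 arrays and MIF on the other 4. This comparison of probes is a description, since each has its own scale of binding to mouse RNA. The root mean square distance between the genes over the 6 arrays was 2.34 units, against a median of 3.22 between MIF and the 1520 other genes and of 2.37 between IGFBP7 and its 1520. By this measure IGFBP7 ranked 54 in nearness to MIF, while MIF ranked 714 in nearness to IGFBP7, close to the middle of all genes.

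**Figure D3:**
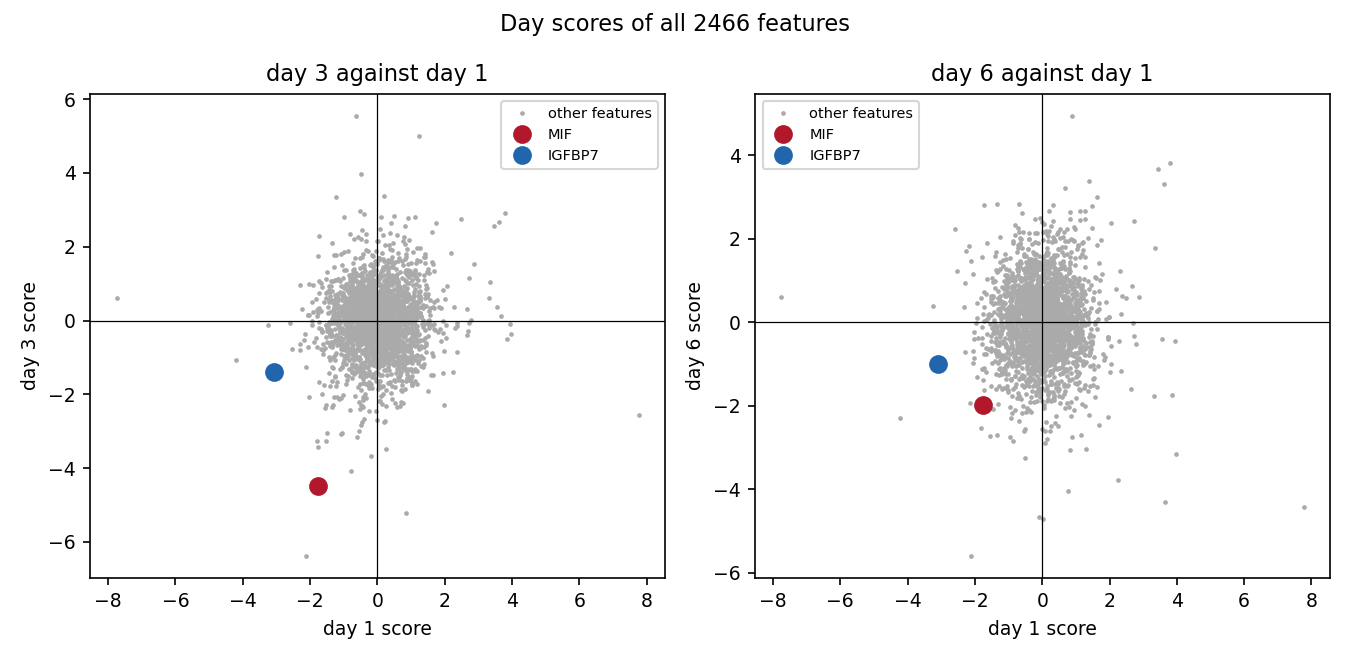
Day 3 (left) and day 6 (right) scores of all 2466 features against their day 1 scores, each point a feature. MIF lies at -1.77 on day 1 and -4.49 on day 3, and IGFBP7 at -3.08 and -1.38; on day 6 they lie at -1.97 and -0.998.

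The genes most like each were found by the smallest root mean square distance over the 6 arrays, which come in dye-swapped pairs of 3 RNA comparisons. This choice favours genes that are low on the arrays where MIF or IGFBP7 is low, so shared low scores are description only. Around MIF these were S100A11, an S100 calcium-binding protein (distance 1.02, Pearson's r = 0.84), ARHGAP33 (1.11, r = 0.83), DUSP26, a dual-specificity phosphatase (1.35, r = 0.58), STARD10, a phospholipid transfer protein (1.42, r = 0.90), and PGK1, the glycolytic phosphoglycerate kinase (1.43, r = 0.67). All 5 were below 0 on 6 of 6 arrays, as were 2.76% of the named genes, but the choice by distance favours such genes. S100A11 had its lowest scores on the day 3 arrays, at -2.86 and -3.67, as MIF did, and STARD10 stood there at -2.29 and -3.04. DUSP26 stood at -3.02 and -2.95 on day 3 but was lowest on day 6 B, at -3.20, and PGK1 stood at -2.25 and -2.41 on day 3. ARHGAP33 was at -5.69 on day 3 B alone and at -1.17 on day 3 A. Only ARHGAP33 and STARD10 were still among the 5 nearest after neighbouring probes were subtracted, and only S100A11 and ARHGAP33 without the day 3 array A.

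Around IGFBP7 the nearest genes were CKB, the brain-type creatine kinase (distance 0.90, r = 0.78), DDIT4, a stress-induced inhibitor of mTOR signalling (1.13, r = 0.76), TMSB10, an actin-sequestering thymosin (1.15, r = 0.75), TAGLN, the actin-binding transgelin of smooth muscle (1.17, r = 0.87), and RPS20, a ribosomal protein (1.17, r = 0.36). TMSB10 was lower than IGFBP7 on both day 1 arrays, at -3.90 and -4.53, and CKB stood at -3.28 on day 1 A but at -1.29 on day 1 B. DDIT4 was above 0 on day 3 B (0.74) and TAGLN on day 6 B (0.01). Of the 5 genes, 0 remained among the nearest when the day 1 array A was left out or when only the first spot of each probe was used, and 2 remained, CKB and DDIT4, after neighbouring probes were subtracted.

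**Figure D4:**
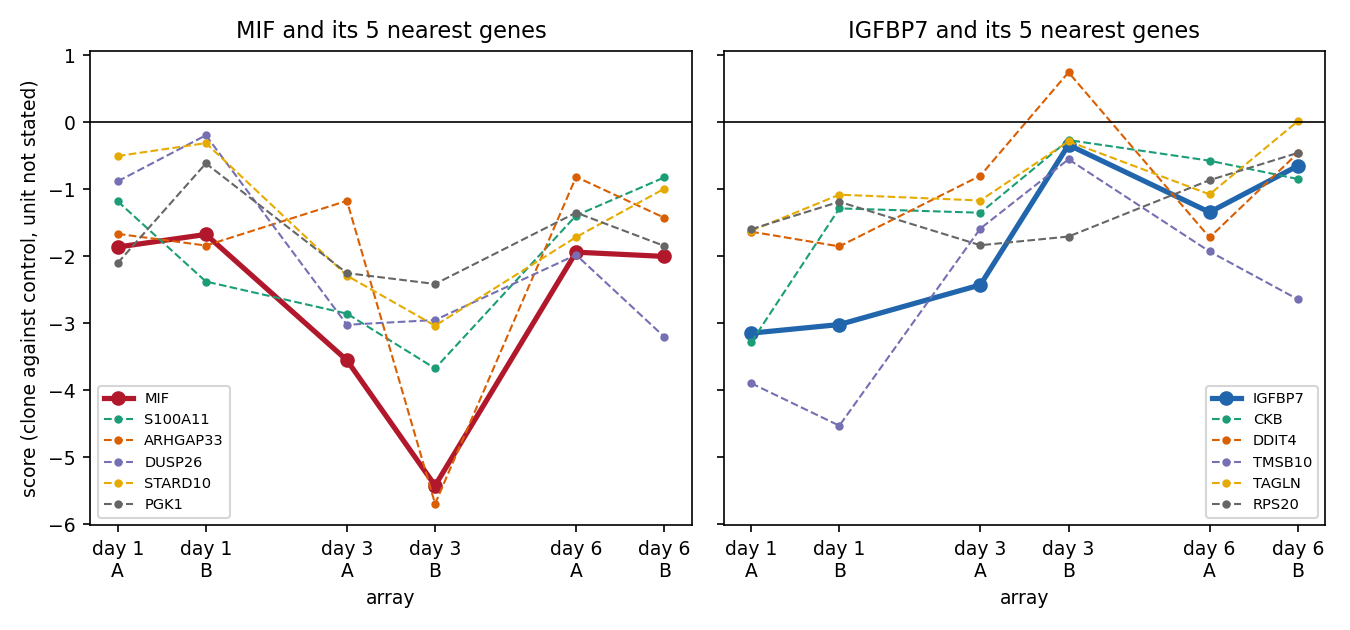
Scores on the 6 arrays of MIF (left) and IGFBP7 (right), thick lines, with the 5 genes nearest to each, dashed lines. S100A11, STARD10, DUSP26 and PGK1 are low with MIF on both day 3 arrays, and TMSB10 lies below IGFBP7 on both day 1 arrays (-3.90 and -4.53). The choice by distance favours such shared low scores.

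Of 12 listed receptors, relatives and partners of MIF, 3 were on the array. CD74, the surface receptor of MIF, had scores of -0.63 and -0.92 on day 1, 0.19 and 0.40 on day 3, and 0.50 and -1.29 on day 6, with a mean of -0.29 ± 0.54 (SD, n = 3 days). CD74 stood above 0 on both day 3 arrays, on which MIF was lowest, and below 0 on both day 1 arrays. Such opposite signs on both arrays were found for 14.2% of features between days 1 and 3, for 15.6% between days 1 and 6 and for 13.5% between days 3 and 6. RPS19, a ribosomal protein that binds MIF, averaged 0.88 ± 0.80, and PRDX1, a peroxiredoxin that binds it, 0.29 ± 0.94. None of the 3 passed the shared change, a limma test of the 3 day means against 0 over all features, which 0.365% of features passed.

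Of 17 listed IGF ligands, receptors, binding proteins and binding-protein proteases, 4 were measured, and 0 passed. IGFBP4, IGFBP5 and IGFBP6, classical IGF binding proteins, averaged -0.27 ± 0.69, 0.09 ± 0.65 and -0.08 ± 1.33 (SD, n = 3 days). On the day 1 arrays A and B, where IGFBP7 was lowest, IGFBP4 stood at -0.38 and 1.16, IGFBP5 at 1.04 and 0.61, and IGFBP6 at -0.00 and 1.98. Only IGFBP5 was thus above 0 on both. IGFBP6 stood at -2.51 and -0.62 on the day 3 arrays, and IGFBP5 at -2.49 and 2.23 on those of day 6, so that its mean was 0.88 without the day 6 array A and -0.69 without array B. IGF2R, which clears IGF2 from the surface, averaged 0.24 ± 0.54, but its day 1 arrays read 2.72 and -1.56, and the mean was -0.47 without array A of that day and 0.96 without array B. Inside the cell, 6 of 31 listed genes of IGF signalling were measured and 0 passed, with means from -0.59 for EIF4EBP1, a translation repressor that mTOR inactivates, to 0.43 for GRB10, an adaptor that dampens insulin and IGF receptors. TSC1, a brake on mTOR, averaged -0.27, while the kinase AKT1 averaged 0.02, FOXO3, a factor that AKT holds out of the nucleus, 0.08, and RPS6, a substrate of the pathway in the ribosome, 0.06. Of 15 relatives and partners of IGFBP7, only COL4A2, a type IV collagen chain, was measured. It averaged 0.49 ± 0.98 and stood at -0.52 on day 1, 1.44 on day 3 and 0.55 on day 6.

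Other released proteins were set beside the pair. Of 81 secreted cytokines, growth factors and secreted antagonists listed, only 2 were measured. FSTL1, a follistatin-like glycoprotein, averaged -0.14 and CLU, the extracellular chaperone clusterin, 0.12. Of 83 matrix proteins, proteases and inhibitors, 21 were measured, 12 with a mean above 0 and 9 below, and the median was 0.12. They ran from SPARC, a collagen-binding matricellular protein, at -0.99 to A2M, a protease inhibitor, at 0.83. SPARC was at -1.15, -3.65 and -1.52 on the A arrays and at 0.03, 0.06 and 0.30 on the B arrays, so its low mean came from 1 dye orientation. PRELP, a leucine-rich proteoglycan, averaged -0.78, and SERPINF1, pigment epithelium-derived factor, -0.54. At the high end stood CTSD, the protease cathepsin D, at 0.78 and SERPING1, the complement inhibitor C1-INH, at 0.75. None of the 21 passed.

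MIF shares its export without a signal peptide with a list of 26 proteins, of which 11 were measured, 5 with a mean above 0 and 6 below. The lowest was ANXA2, a membrane-binding annexin, at -1.76 and -2.01 on day 1, -0.17 and -1.01 on day 3, and -2.25 and -1.63 on day 6. It averaged -1.47 ± 0.77 (SD, n = 3 days) without passing (limma's adjusted p = 0.255), and it was closer to 0 on day 3, the day on which MIF was lowest. PRDX2, a peroxiredoxin, averaged -0.44 and S100A9, a calgranulin subunit, -0.44. LGALS1, galectin 1, averaged 0.79 ± 1.21, and PARK7, the redox protein DJ-1, 0.42.

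Machinery for entry into the secretory pathway, which IGFBP7 uses, had 10 of 47 listed genes on the array, 6 with a mean above 0 and 4 below. SSR4 and SSR2, subunits of the translocon-associated complex, averaged -0.64 and -0.58, and the coatomer subunit COPE -0.16. The small GTPase ARF1 averaged 0.81, the signal peptidase subunit SEC11A 0.59 and the chaperone calreticulin, CALR, 0.56. CALR was at 2.27, 1.70 and 0.87 on the A arrays and at -0.71, -1.41 and 0.62 on the B arrays, and its mean lay between 0.04 and 1.08 with 1 array left out. ARF1 stood at -1.30 and 2.16 on day 1, and its mean was 1.39 without array A of that day and 0.23 without array B. The COPE mean was 0.06 without the day 1 array A. No gene passed.

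Over these 8 lists together, 56 genes besides MIF and IGFBP7 were measured. By limma, 0 passed the shared change, the slope over days or a difference between days. SPARC and ANXA2, 2 of the 56, had an unadjusted p under 0.05 in the shared change, as did 164 of all 2466 features, and 0 of the 56 did for the slope. The median mean score was 0.08, against 0.00 over all features. By the rule that picked MIF and IGFBP7, ANXA2 and SSR2 lay below 0 on 6 of 6 arrays, with their highest scores at -0.17 and -0.13. These are 2 of 56 genes, beside the 2.88% of all features that met the rule. At least 5 arrays below 0 were found for 12.6% of features. Just outside the rule, on 5 of 6 arrays, were PRELP, with 1.63 on day 6 A, SERPINF1, with 1.44 on day 3 B, S100A9, with 0.83 on day 3 A, and SSR4, with 0.32 on day 6 A. Of 15 markers of muscle fibres matched by symbol, 7 had a mean above 0 and 8 below. The listed MYLPF was not matched, because the array names it by its newer symbol, MYL11. MYL11 is not in these counts and stood at -3.84 and -0.78 on day 1, 0.79 and 1.12 on day 3, and 0.14 and 0.60 on day 6. Of 4 markers of fibroblasts and smooth muscle 3 were below 0, of 2 adipocyte markers 1 was, and of 2 macrophage markers, CD74 and TYROBP, both were. The marker means ranged from -1.23 to 0.90. None of these 23 markers passed the shared change, and their part in the MIF and IGFBP7 scores was not tested.

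**Figure D5:**
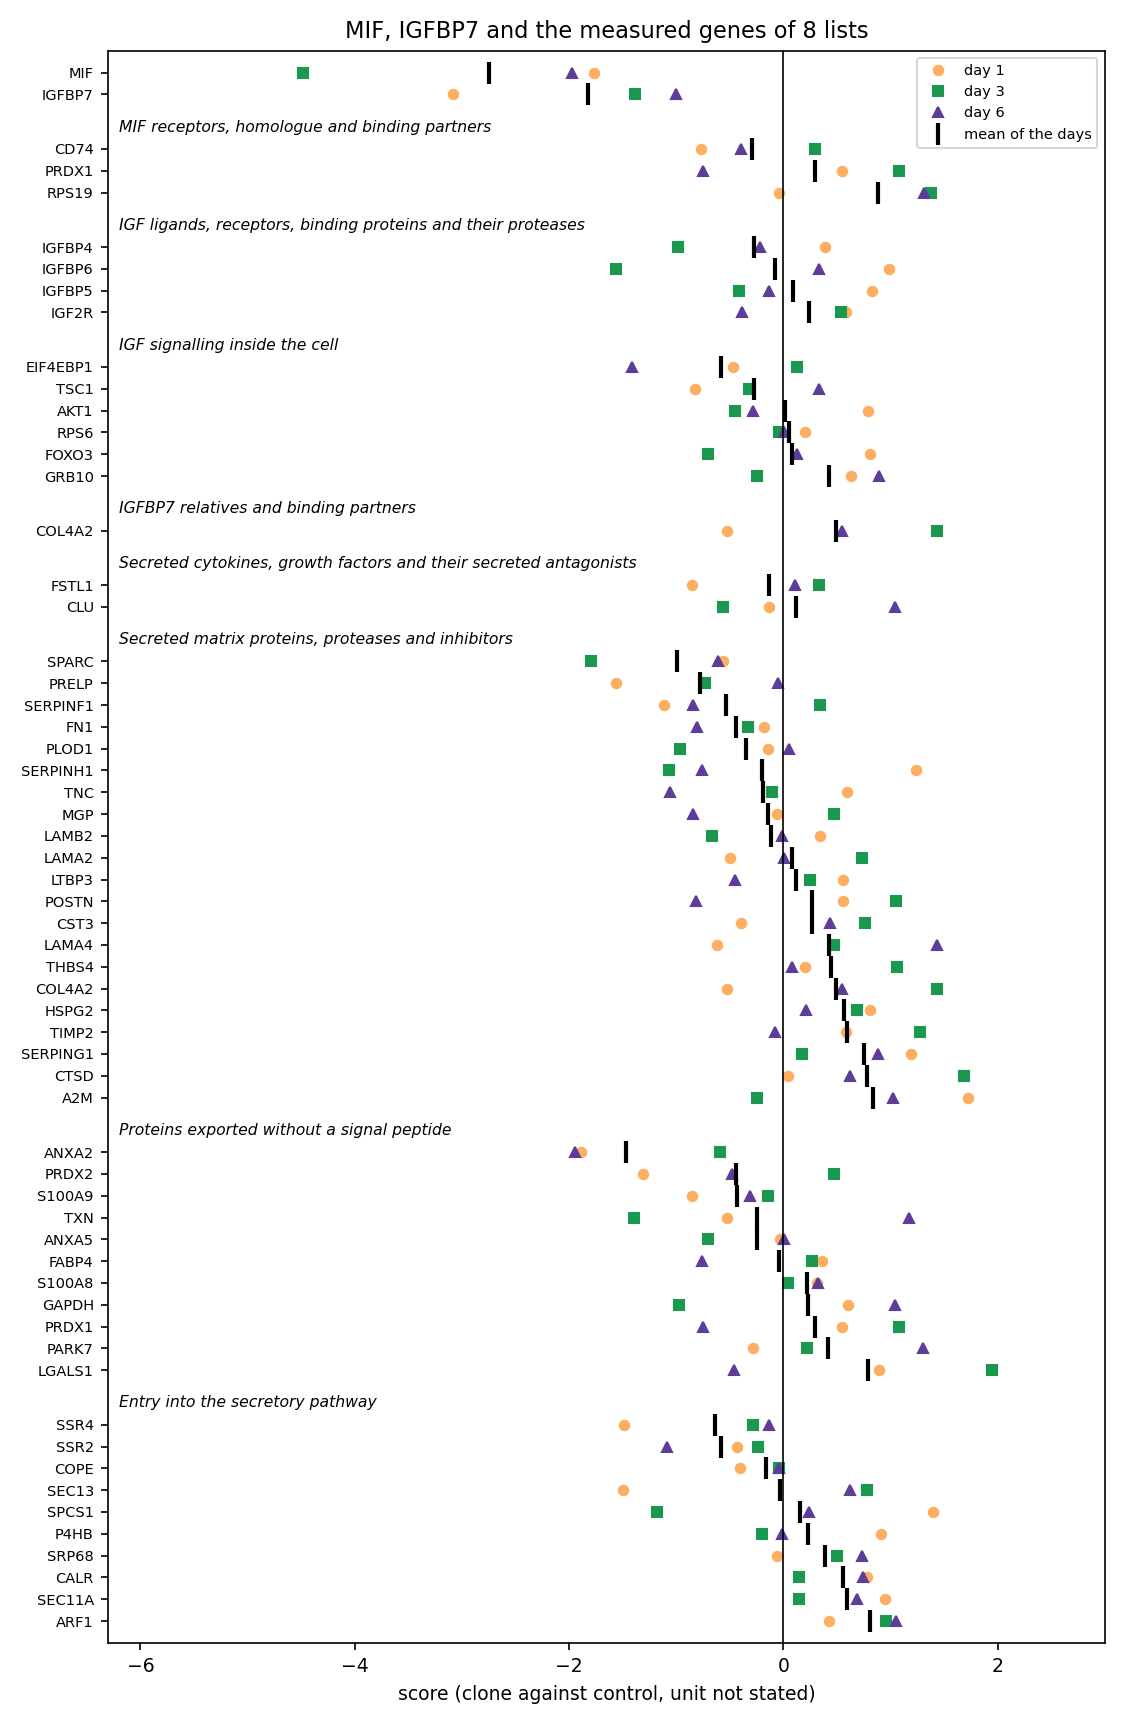
Day scores (symbols) and their mean (black bars) for MIF, IGFBP7 and each measured gene of 8 lists, on the score axis. The means of the listed genes run from -1.47 (ANXA2) to 0.88 (RPS19), all above those of MIF (-2.74) and IGFBP7 (-1.82); genes in 2 lists are drawn in both.

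Binding of mouse RNA to the human MIF and IGFBP7 probes was not tested. The mouse annotation used here names 3 Mif pseudogenes and 0 for Igfbp7, and a probe for MIF could bind transcripts of such copies as well.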

How the data were processed

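Per the labels' protocols, cDNA was labelled by tyramide signal amplification, and the 6 arrays had 2 colours. The deposited table holds 1 score per spot, made by the authors; its background correction and normalization are not given in the sources used here. An annotation table of the platform gave 1 gene symbol for 3486 of 5376 spots and none for 1890. Duplicate spots were averaged to 2688 probes, probes of a gene were averaged, and arrays were centred on their medians. For means, the shared change and the slope, a day's dye-swapped arrays were taken as 1 replicate (n = 3 days). Differences between days were fitted to the 6 arrays. Nothing says that days came from separate cultures, so p-values cover only the spread seen here, which may be technical. Fits used limma 3.58.1 in R 4.3.3, two-sided, with Benjamini-Hochberg adjustment over 2466 features and a threshold of 0.05, and were tested on simulated data. Precision is limited by the number of arrays; how far signals lay above background is not known. Promoters are from RefSeq, build GRCm38.p6.

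MIF, IGFBP7, the lists and the threshold of 2 units were chosen with earlier results of these data known. Genes named besides MIF and IGFBP7 are the 5 nearest to each and the 3 lowest and 3 highest means of each list. Also named are listed genes below 0 on 5 or 6 arrays and the silenced gene MYOD1. TYROBP and MYL11 were chosen after their values were seen. Alternatives were values without centring, scaling by median absolute values, single spots, subtraction of 10 neighbouring probes (even places 2 to 10 on either side), genes only, separate probes, a robust prior (statmod), 6 separate arrays, the array letter as a block, and leaving out each array or day. Their use on single-day scores, on MIF's and IGFBP7's differences between days and on the nearest genes was added after seeing the data. Python 3.11.15 with matplotlib 3.10.9 made the figures.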

Additional observations from a re-analysis of the deposited data

Results flagged for a closer look

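Of 43 nearest and listed genes named, 10 had opposite signs on both arrays of 2 different days, 14 differences in all. Over all features such opposite signs were found for 14.2% between days 1 and 3, 15.6% between days 1 and 6, and 13.5% between days 3 and 6. Each of these shares is for 1 pair of days, whereas the 10 genes are counted over any pair. The share of all features over any pair was not computed, so the 10 genes have no like background. None of the 10 genes passed limma's test of the difference between days, whose only error is the spread between dye-swapped arrays. Day 3 minus day 1 was 1.07 for CD74, 1.96 for COL4A2, 1.78 for PRDX2 and -1.51 for FOXO3. Day 6 minus day 1 was 1.07 for COL4A2, 1.16 for TSC1, 1.58 for PARK7 and -1.29 for PRDX1. Day 6 minus day 3 was 1.605 for CLU, 1.14 for GRB10, 0.65 for TSC1, -0.94 for PRDX2, -1.83 for PRDX1 and -2.41 for LGALS1. MIF and IGFBP7 had 1 sign on all arrays, which the way they were chosen fixes.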

How the results depend on the processing

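The mean of MIF stayed between -3.23 and -1.87 and that of IGFBP7 between -2.23 and -1.19 under 15 alternatives each. The difference of MIF between days 6 and 1 turned to 0.10 with scale normalization, and that of IGFBP7 between days 6 and 3 to -0.66 without the day 3 array A (range -0.66 to 1.43 with 1 array left out); the cause was not tested. In 13 alternatives each, neither gene passed a slope or a difference between days by limma (adjusted p at least 0.392), and 0 listed genes passed the shared change. Counts over all features moved more. The shared change had 9 calls, 4 with neighbouring probes subtracted, 2 with genes only (fewer features tested), and 0 to 8 with 1 array left out, 0 without the day 3 array A, 5 without day 3 B, 4 without day 1 B and 3 without day 6 A. The slope had 0 calls by limma, 4 as deposited, 1 with scale normalization, 13 with neighbouring probes subtracted, 1 with separate probes, 5 with 6 separate arrays, and 0 to 11 with 1 array left out (5 and 11 without the day 1 arrays A and B, 8 without day 6 A). Between days 1 and 3 there were 4 calls, and 0 to 4 with 1 array left out, 0 without either day 1 array. Between days 1 and 6 there were 9, 14 with neighbouring probes subtracted, 15 with separate probes, and 0 to 28 with 1 array left out, 0 without either day 1 array, 28 without day 6 A and 5 without any of the others. Between days 3 and 6 there was 1 call, 2 with neighbouring probes subtracted, 4 with separate probes, 12 with a robust prior, and 1 to 7 with 1 array left out, 7 without day 6 A, 3 without day 6 B and 2 without either day 3 array. Features at least 2 units from 0 on both arrays numbered 20, 31 and 45 on days 1, 3 and 6; at 1.5 units these were 46, 79 and 113, and at 3 units 8, 7 and 7.

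Deviations of same-letter arrays from their day means correlated at -0.04 to -0.00 over all features, so the main fits did not pair arrays by letter. The letter is also the dye orientation, and such a correlation cannot show whether single genes carry a dye effect. With the letter as a replicate block, differences between days had 2, 5 and 0 calls against 4, 9 and 1, and neither MIF nor IGFBP7 passed. A lone array of a day was assumed to vary like the other days.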
